A study of Polypedilum vanderplanki with 24 samples.

Results

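The genes described here are those annotated to trehalose synthesis, transport and breakdown in *Polypedilum vanderplanki*, the sleeping chironomid, whose cell line Pv11 can be dried and rehydrated after incubation in concentrated trehalose. They are *g13302* (trehalose-6-phosphate synthase), *g17178* (trehalase) and every other gene with trehalose or trehalase in at least 1 of its listed BLAST descriptions, 35 genes of 17782 in the deposited table. By their protein domains 2 belong to synthesis, 1 to breakdown and 29 to the sugar transporter family, and 3 carry none of these domains. The choice went by annotation and used no measured value, though it was made with earlier results of these data known.

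Poly(A) RNA was sequenced from 4 lines of Pv11 cells, before trehalose treatment (T0) and after 48 h in a concentrated trehalose mixture (T48), with 3 libraries in each of 8 groups. No group was kept for 48 h without trehalose. A change from T0 to T48 by trehalose therefore cannot be told apart from one by time or by the diluted medium of the mixture. In *Hsf1*-/-; *Hsf1*-HaloTag/BlaR cells (here HSF1-rescue cells), *Hsf1* with HaloTag and the blasticidin resistance gene BlaR had been knocked in at *g7775* of the knockout, under the endogenous promoter of that gene. *Hsf1*-/-; HaloTag/BlaR cells (control cells) carry HaloTag and BlaR at the same place, without *Hsf1*. *Hsf1*-/- cells have an AcGFP1 and zeocin resistance cassette in the first exon of *Hsf1*, which encodes heat shock factor 1, and all 3 derived lines carry this insertion. WT cells are the unmodified line. Each derived line is 1 sorted clone, so a difference between lines cannot be told apart from a difference between clones. The 2 lines with a working *Hsf1* by their labels are the HSF1-rescue and WT cells.

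The deposited value is the mean TPM of the 3 libraries of a group (a share of the library's total after division by gene length), so each gene has 1 value per group and no spread between libraries. No difference below has a replicate check or a test, and which neighbours in an order of levels differ beyond their spread cannot be said. TPM does not keep the depth of a library, and the read totals and library values in the study's supplement were not used here. Folds are ratios of mean TPM. Log2 ratios are of mean TPM + 1, which understates changes at low levels, and past 2-fold stands for a log2 ratio of 1 or more in size, with 1 TPM or more in one of the groups compared. The whole table was shifted in some comparisons: the median log2 ratio at T48 over T0 of the genes tested came to 0.08 for HSF1-rescue, 0.35 for control, 0.30 for *Hsf1*-/- and 0.53 for WT cells, and between HSF1-rescue and control cells at T48 it came to -0.34. Log2 ratios called scaled were taken after division by median-of-ratios factors, which put these medians between -0.01 and 0.01. The gene taken as *Hsf1* (*g3611*) had at most 0.307 TPM in any group. In HSF1-rescue cells it had 0.139 TPM at T48 and 0.00892 TPM at T0, although the study's western blot found HSF1 protein in those cells. Whether *g3611* captures the *Hsf1* transcript was not tested, so its level is not used to separate the lines. The study checked them by genomic PCR, sequencing and western blotting, and they are named here by their labels. *g7775*, the locus of the knock-ins, had 12040 TPM in HSF1-rescue cells at T48 and 37726 TPM in control cells at T48. In bulk RNA a change in every cell cannot be told apart from a change in the share of cells that express a gene.

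Trehalose is a non-reducing disaccharide of glucose and the main blood sugar of insects. Trehalose-6-phosphate synthase joins UDP-glucose and glucose-6-phosphate, trehalose-6-phosphate phosphatase removes the phosphate, facilitated transporters such as TRET1 of the sugar transporter family carry trehalose across the plasma membrane, and trehalase splits it into glucose. In anhydrobiotic animals, those that survive almost complete drying, trehalose is known as a protectant of membranes and proteins in the dry state. Heat shock factor 1 binds heat shock elements (HSEs), arrays of the unit NGAAN in alternating orientation.

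The regulatory sequences in the table are the HSE matches that the authors' motif search (FIMO) found in a 1000 bp window around each start site. They are shown for *g13300*, the phosphatase gene, and for the other expressed members with a match, *g10834* and *g2292*, because these are the members with at least 1 TPM in some group that had a match. *g13507*, the most abundant of the members below 1 TPM, is added for comparison. Capitals mark TTC and GAA at the 3 unit positions of the 13-letter motif.
g13300: TTCtaGAAaattt
g10834: TTCtggattattg
g2292: atctcgatagTTC
g13507: TTCtcGAAcaatc
The *g13300* sequence lay on chromosome 3 of assembly Pv_5.2, at positions 91 to 103 of the plus-strand window chr3:29007384-29008383, and so 409 bases before the window's centre. It was matched by 3 of the motif matrices (MA0486.2, MA0770.1 and MA0771.1), with the highest FIMO score, 14.1, for MA0770.1, and MA0486.1 matched 1 more base at each end. A second window of *g13300*, chr3:29007685-29008684, begins after this place and held only matches of MA0319.1, the 8-letter matrix (atggaaga, found in both windows, and atggaact). The centre of the first window is position 29007883, before the listed start of *g13300* (29008145), and that of the second is 29008184, after it. The 13 letters printed for *g13300* were matched in 23 genes of the table, 0.129% of all genes. The *g10834* match began 364 bases after the centre of its window, chr3:12173105-12174104, with a score of 8.75 for MA0770.1 only. The *g13507* match began 446 bases before the centre of chr3:30548193-30549192 and scored 14.2 for MA0770.1. The *g2292* match lay in the window chr1:16538470-16539469 of a minus-strand gene, for which the direction of counting is not given, and its position is therefore not printed. The study's methods name 4 of the 5 matrices in the table, all but MA0319.1. With these 4, 11 of the 35 members (31.4%) had a match, against 3398 of all 17782 genes (19.1%). Of the 16 members with at least 1 TPM in some group 3 had one (18.8%), against 1831 of 8963 genes at that level (20.4%), and of the 19 members below 1 TPM 8 had one. With MA0319.1 included, the shares were 37.1% of members against 27.6% of genes, and 18.8% against 28.6% among those with at least 1 TPM. The search matched no motif in the windows of *g13302*, *g17178*, *g6534* or *g5495*, which says only that these letters were not matched there.

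Trehalose-6-phosphate synthase, the first enzyme of the pathway, was the member with the widest separation between HSF1-rescue and control cells. *g13302* lies on chromosome 3 at 29010571 to 29015173 on the minus strand, and its protein carries both a synthase (glycosyl transferase family 20) and a trehalose-phosphatase domain. Its mean level was 302 TPM at T48 and 100 TPM at T0 in HSF1-rescue cells, 20.6 TPM at T48 and 4.38 TPM at T0 in control cells, 58.1 TPM at T48 and 25.5 TPM at T0 in *Hsf1*-/- cells, and 171 TPM at T48 and 38.8 TPM at T0 in WT cells. The highest of the 8 group means was 68.9 times the lowest. In every line T48 stood above T0, and at both times the HSF1-rescue and WT cells stood above the control and *Hsf1*-/- cells.

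The level at T48 was 3.01 times that at T0 in HSF1-rescue cells (log2 ratio 1.58, scaled 1.49), 4.70 times in control cells (2.00, scaled 1.66), 2.28 times in *Hsf1*-/- cells (1.16, scaled 0.84) and 4.40 times in WT cells (2.11, scaled 1.53). The *Hsf1*-/- value is thus no longer past 2-fold after scaling. HSF1-rescue over control cells gave a log2 ratio of 3.81 at T48 and 4.24 at T0, 14.7-fold and 22.9-fold in mean TPM, the largest ratio of any member with at least 1 TPM in both comparisons. *Hsf1*-/- over WT cells gave -1.54 at T48 and -0.59 at T0. The 2 lines without a working *Hsf1* were not at 1 level, since *Hsf1*-/- cells had 25.5 TPM at T0, against 4.38 TPM in control cells, which derive from them. The response from T0 to T48 on the log2 scale differed by -0.43 between HSF1-rescue and control cells (scaled -0.16). The gap between these lines was thus present at T0 and somewhat smaller at T48. For *Hsf1*-/- minus WT cells the response differed by -0.95 (scaled -0.69), so the gap between those lines was wider at T48.

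*g13300*, the second synthesis gene, encodes a protein with a trehalose-phosphatase domain and no synthase domain. It lies at 29008145 to 29009204 on the plus strand of chromosome 3, and 1 gene, *g13301*, sits between it and *g13302*. *g13300* had 125 TPM at T48 and 23.8 TPM at T0 in HSF1-rescue cells, 25.6 TPM at T48 and 19.1 TPM at T0 in control cells, 32.2 TPM at T48 and 28.3 TPM at T0 in *Hsf1*-/- cells, and 56.7 TPM at T48 and 10.7 TPM at T0 in WT cells. The 2 lines with *Hsf1* were above the other lines at T48, while at T0 WT cells had the lowest value and the other 3 lines had 19.1 to 28.3 TPM.

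T48 stood 5.28-fold above T0 both in HSF1-rescue cells (log2 ratio 2.35, scaled 2.27) and in WT cells (2.30, scaled 1.74). It stood 1.34-fold above T0 in control cells (0.41, scaled 0.04) and 1.14-fold above in *Hsf1*-/- cells (0.18, scaled -0.13, where the sign turns). The log2 response of HSF1-rescue cells exceeded that of control cells by 1.95 (scaled 2.23), and that of *Hsf1*-/- cells was 2.12 below that of WT cells (-2.12, scaled -1.88). The first of these differences was the highest and the other the lowest of any expressed member. On the second, the transporter *g13282* was close, at -2.06 (scaled -1.87). Over all genes at 1 TPM or more the median differences were -0.22 and -0.21. The synthase and the phosphatase thus separated HSF1-rescue from control cells in different ways. Between these lines *g13302* differed past 2-fold already at T0. *g13300* did so at T48 only, with log2 ratios of 2.25 at T48 and 0.30 at T0. *Hsf1*-/- over WT cells gave another picture for *g13300*, -0.80 at T48 (scaled -0.84) and 1.32 at T0 (scaled 1.04). That pair was thus past 2-fold at T0 only, with *Hsf1*-/- cells the higher.

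**Figure D1:**
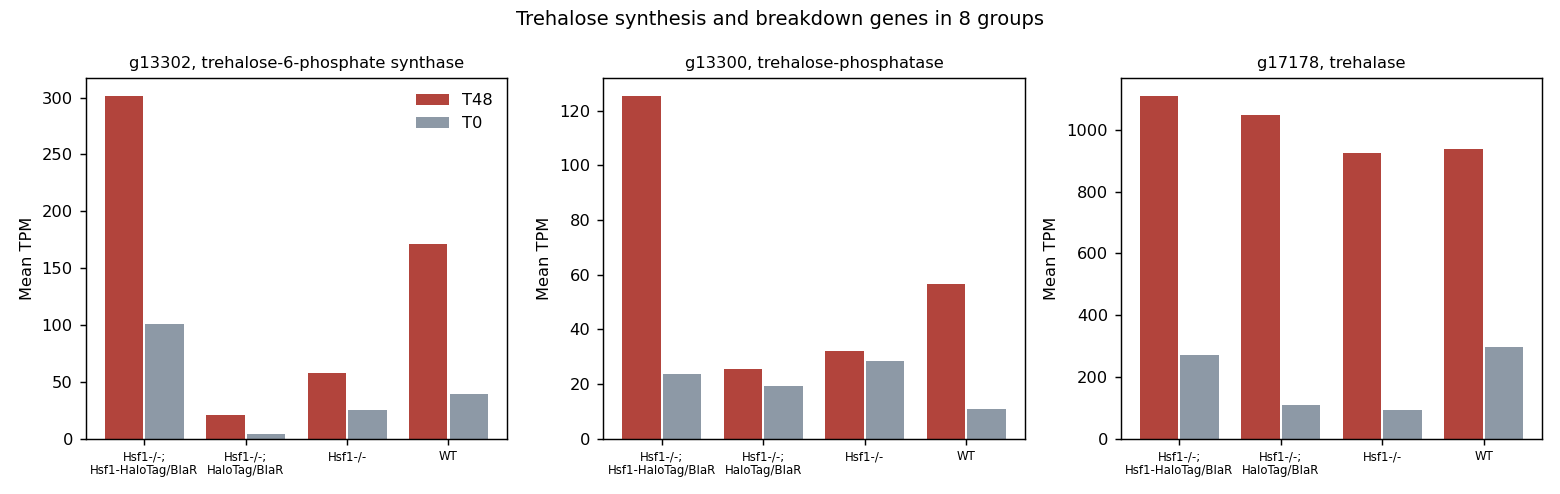
Mean TPM (y axis, linear from 0) of g13302, g13300 and g17178 in the 4 lines (x axis), at T48 (red) and T0 (grey). Each bar is the authors' mean of 3 libraries, with no error available; synthase is highest in the HSF1-rescue cells at both times, phosphatase at T48 stands out in HSF1-rescue (125 TPM) and WT cells (56.7 TPM), and trehalase is between 925 and 1111 TPM at T48 in all 4 lines.

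Of the genes around the synthesis pair, *g13301* did not have its order of lines. In *g13299* the 2 lines with *Hsf1* were above the other lines at T48, as in *g13300*, at a low level. *g13301*, with a Yip1 domain, had 21.9 TPM at T48 and 13.3 TPM at T0 in HSF1-rescue cells and 33.3 TPM at T48 and 18.9 TPM at T0 in control cells, so the HSF1-rescue cells were the lower ones. It had 39.9 TPM at T48 and 22.1 TPM at T0 in *Hsf1*-/- cells, and 33.4 TPM at T48 and 15.3 TPM at T0 in WT cells. *g13299*, a small GTPase gene on the other side of *g13300*, had 3.10 TPM at T48 and 0.280 TPM at T0 in HSF1-rescue cells, 0.758 TPM at T48 and 0.0715 TPM at T0 in control cells, 0.510 TPM at T48 and 0.577 TPM at T0 in *Hsf1*-/- cells, and 1.65 TPM at T48 and 0.110 TPM at T0 in WT cells. It was past 2-fold and higher at T48 over T0 in HSF1-rescue (log2 ratio 1.68) and WT cells (1.26), and in HSF1-rescue over control cells at T48 (1.22, scaled 1.39). *g13303*, beyond *g13302*, was listed at 0.0239 TPM or less in every group. In the RefSeq annotation of the same assembly, a single locus, PVAND_003938 (29007180 to 29032901), covers *g13300*, *g13301* and *g13302* and reaches *g13303* and *g13304*, so the 2 annotations split this stretch differently. The separate values of *g13300* and *g13302* depend on the gene models that were counted, whose strand setting is not given in the sources used here.

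Trehalase was the most abundant member at T48 in all 4 lines. *g17178* (PVAND_017183 in RefSeq), on chromosome 4 at 12729721 to 12745419, minus strand, has a glycoside hydrolase family 37 domain. It had 1111 TPM at T48 and 269 TPM at T0 in HSF1-rescue cells, 1049 TPM at T48 and 107 TPM at T0 in control cells, 925 TPM at T48 and 93.5 TPM at T0 in *Hsf1*-/- cells, and 937 TPM at T48 and 296 TPM at T0 in WT cells. At T0 *g6534*, a transporter, was higher than trehalase in control, *Hsf1*-/- and WT cells, and *g5495*, another, in control and *Hsf1*-/- cells. At T48 trehalase ranked between 146th and 176th of the 17782 genes in each line. The 4 lines were within 1.20-fold of each other at T48, while at T0 the HSF1-rescue and WT cells were above the other 2 lines.

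The excess of T48 over T0 was accordingly larger in the lines without *Hsf1*, 9.77-fold in control cells (log2 ratio 3.28, scaled 2.90) and 9.89-fold in *Hsf1*-/- cells (3.29, scaled 2.97), than in the lines with it, 4.12-fold in HSF1-rescue cells (2.04, scaled 1.95) and 3.17-fold in WT cells (1.66, scaled 1.08). The log2 response of HSF1-rescue minus that of control cells was -1.24 (scaled -0.94), and that of *Hsf1*-/- minus WT cells was 1.63 (scaled 1.89). HSF1-rescue over control cells gave 0.08 at T48 and 1.32 at T0. *Hsf1*-/- over WT cells gave -0.02 at T48 and -1.65 at T0. Of the genes next to it, *g17177* was listed at 0.0142 TPM or less. *g17179*, with hexapeptide repeats and a nucleotidyl transferase domain, had 67.9 TPM at T48 and 88.9 TPM at T0 in HSF1-rescue cells, but 129 TPM at T48 and 53.9 TPM at T0 in control cells.

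The 2 other members with a glycosidase link were close to silent. *g4345* and *g13688*, whose descriptions include acid trehalase-like proteins in 3 of 15 hits each, were listed at 0.0208 TPM or less in every group. *g9327*, with a trehalose receptor domain, the family of insect sugar taste receptors, was listed at 0 in all 8 groups.

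Levels of synthase and trehalase, both per length, can be set against each other within a group. Trehalase was the higher transcript in all 8 groups. It stood 3.68-fold above synthase at T48 and 2.68-fold at T0 in HSF1-rescue cells, 51.0-fold at T48 and 24.5-fold at T0 in control cells, 15.9-fold at T48 and 3.67-fold at T0 in *Hsf1*-/- cells, and 5.48-fold at T48 and 7.62-fold at T0 in WT cells. On the log2 scale, synthase over trehalase was -1.88 at T48 and -1.42 at T0 in HSF1-rescue cells, and -5.67 at T48 and -4.62 at T0 in control cells. It was -3.99 at T48 and -1.88 at T0 in *Hsf1*-/- cells, and -2.45 at T48 and -2.93 at T0 in WT cells. At T48 the 2 lines with *Hsf1* had the higher ratios. At T0 the *Hsf1*-/- cells had a higher ratio than WT cells, so the order of lines by this ratio was not the same at both times. WT was also the only line in which the ratio was higher at T48 than at T0. These are ratios of transcripts, and neither enzyme activity nor trehalose was measured here.

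**Figure D2:**
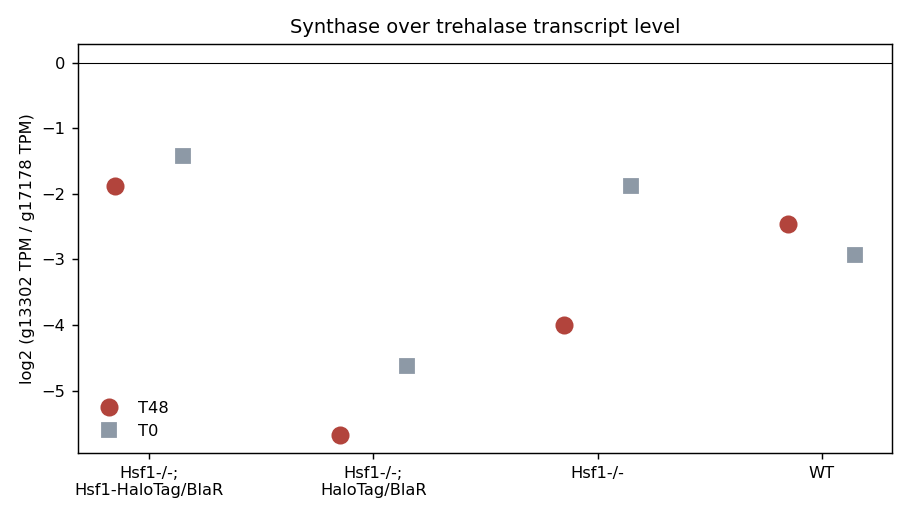
Log2 of g13302 TPM over g17178 TPM (y axis) in the 4 lines (x axis) at T48 (circles) and T0 (squares), 1 point per group mean. All 8 points lie below 0, from -5.67 in control cells at T48 to -1.42 in HSF1-rescue cells at T0.

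Synthase over phosphatase (*g13302* over *g13300*) also varied among lines. Synthase was 2.40 times phosphatase at T48 and 4.22 times at T0 in HSF1-rescue cells, and 3.02 times at T48 and 3.62 times at T0 in WT cells. It was 0.803 times at T48 and 0.229 times at T0 in control cells, and 1.80 times at T48 and 0.899 times at T0 in *Hsf1*-/- cells. In the 2 lines with *Hsf1* this ratio was lower at T48, and in the other 2 lines it was higher at T48.

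Of the 29 members with a sugar transporter domain, 13 reached 1 TPM in some group (44.8%), against 50.4% of all genes. Among the 29, 7 reached 10 TPM in some group (24.1%, against 36.1% of all genes) and 6 reached 1 but not 10 TPM. Another 14 of the 29 stayed below 1 TPM and 2 were listed at 0 in all groups. The BLAST hits of the 29 genes name trehalose transporters in 2 to 13 entries, beside other sugar transporters, and which sugar each carries was not measured. The transporters are spread over the 4 chromosomes, with 3 groups of near neighbours. *g1616*, *g1617*, *g1619* and *g1622* lie on chromosome 1 between 12166202 and 12183123, and none exceeded 0.284 TPM. *g5495* and *g5496* on chromosome 2 are 1796 bp apart. *g13282*, *g13283* and *g13285* lie on chromosome 3 between 28898635 and 28912469, and 95675 bp separate the last of them from *g13300*. Reads that fit more than 1 place were not counted, so copies that are near-identical could lose reads, and their levels are uncertain to that extent.

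*g6534* and *g5495* were the abundant transporters and together made up 71.2% to 91.3% of the summed TPM of the 29 genes. *g6534* (chromosome 2, 17523055 to 17529473), with facilitated trehalose transporter descriptions in 10 of 15 hits, had 289 TPM at T48 and 267 TPM at T0 in HSF1-rescue cells, 187 TPM at T48 and 226 TPM at T0 in control cells, 184 TPM at T48 and 170 TPM at T0 in *Hsf1*-/- cells, and 207 TPM at T48 and 343 TPM at T0 in WT cells. It was the steadiest of the 10 members that reached 10 TPM, with a highest mean 2.02 times the lowest, and it was past 2-fold in 1 comparison only, *Hsf1*-/- over WT cells at T0 (log2 ratio -1.01, scaled -1.32). Its T48 over T0 log2 ratio lay between 0.12, in *Hsf1*-/- cells, and -0.73, in WT cells, and after scaling WT cells reached -1.31.

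*g5495* (chromosome 2, 9854963 to 9861736) had 417 TPM at T48 and 194 TPM at T0 in HSF1-rescue cells, 562 TPM at T48 and 146 TPM at T0 in control cells, 500 TPM at T48 and 115 TPM at T0 in *Hsf1*-/- cells, and 615 TPM at T48 and 280 TPM at T0 in WT cells. T48 was 2.15-fold above T0 in HSF1-rescue, 3.86-fold in control, 4.34-fold in *Hsf1*-/- and 2.19-fold in WT cells, and only the WT value was under 2-fold after scaling (log2 ratio 0.55). At T48 *g5495* was the higher of the 2 transporters in each line, at 1.44 to 3.01 times *g6534*, and at T0 it was the lower one, at 0.643 to 0.816 times. Its gene model also carries an insect cuticle protein domain, and 2 of its 15 hits name a trehalose transporter, so this level may not be that of a transporter transcript alone. Its neighbour *g5496* reached 1.497 TPM at most.

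The other 5 transporters that reached 10 TPM did not move as 1 group. *g13282* had 5.21 TPM at T48 and 12.3 TPM at T0 in HSF1-rescue cells, 5.45 TPM at T48 and 31.7 TPM at T0 in control cells, 8.61 TPM at T48 and 31.7 TPM at T0 in *Hsf1*-/- cells, and 5.46 TPM at T48 and 4.27 TPM at T0 in WT cells. It was therefore lower at T48 in the 3 derived lines, and *Hsf1*-/- stood 7.43-fold above WT cells at T0, the largest log2 ratio (2.63) of any member in that comparison. *g7549* was lower at T48 than at T0 in all 4 lines, with 12.5 TPM at T48 and 27.7 TPM at T0 in HSF1-rescue cells, 6.06 TPM at T48 and 20.2 TPM at T0 in control cells, 5.35 TPM at T48 and 21.6 TPM at T0 in *Hsf1*-/- cells, and 7.38 TPM at T48 and 11.5 TPM at T0 in WT cells. In WT cells the log2 ratio was -0.58 (scaled -1.11), and in the other lines it was past 2-fold.

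*g13285* showed the opposite order of lines to the synthase. It had 2.72 TPM at T48 and 0.760 TPM at T0 in HSF1-rescue cells, 14.9 TPM at T48 and 5.19 TPM at T0 in control cells, 11.6 TPM at T48 and 3.66 TPM at T0 in *Hsf1*-/- cells, and 9.78 TPM at T48 and 2.41 TPM at T0 in WT cells. HSF1-rescue over control cells gave log2 ratios of -2.09 at T48 and -1.81 at T0, the lowest of any expressed member in both comparisons, while *Hsf1*-/- over WT cells gave 0.22 at T48 and 0.45 at T0. *g13283*, next to *g13282*, had 19.8 to 37.2 TPM in all groups but WT at T48, with 56.7 TPM. *g10834* had 22.9 to 33.9 TPM at T48 and 14.0 to 17.6 TPM at T0 over the 4 lines, so all T48 values were above all T0 values, although after scaling its WT log2 ratio turned from 0.37 to -0.19.

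**Figure D3:**
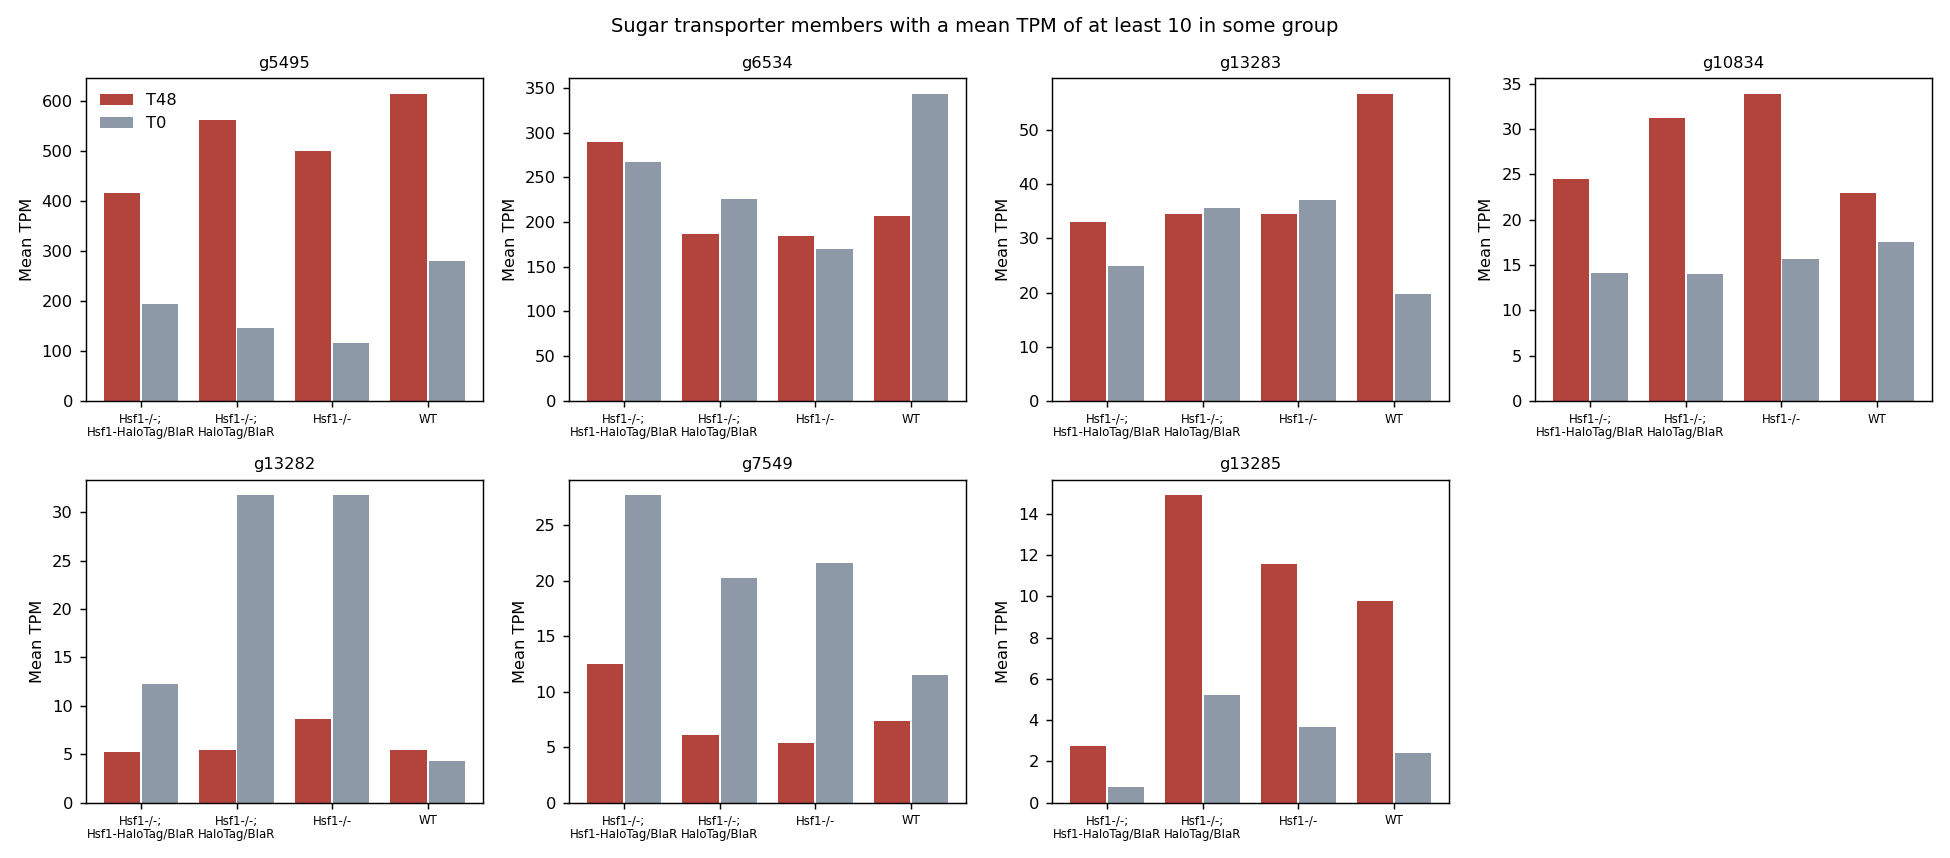
Mean TPM (y axes, linear from 0, a scale for each gene) of the 7 sugar transporter members that reached 10 TPM, in the 4 lines (x axis) at T48 (red) and T0 (grey). Bars are the authors' means with no error available; g5495 is above its T0 level at T48 in each line, g6534 stays between 170 and 343 TPM, and g7549 is below its T0 level in each line.

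Of the 6 transporters between 1 and 10 TPM, *g12088* reached 6.75 TPM, *g5078* 5.85 TPM and *g4946* 3.72 TPM. The others, *g2292*, *g5496* and *g6877*, reached 1.33 to 1.54 TPM. *g5078* and *g4946* were past 2-fold and higher at T48 in all 4 lines, with log2 ratios of 1.31 to 1.66 for *g5078* and of 1.01 to 1.94 for *g4946*.

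Counted over the family, 16 of the 35 members had at least 1 TPM in some group (45.7%), against 8963 of 17782 genes (50.4%). Some members passed the minimum of 1 TPM in only the higher group and so entered the counts partly through the difference itself. The counts that follow therefore describe the family and carry no test. At T48 over T0, 7 of 13 members with at least 1 TPM were past 2-fold and higher in HSF1-rescue cells, where 11.5% of all genes tested were, and 9 of 15 in control cells, where 24.5% were. The number was 9 of 15 in *Hsf1*-/- cells, beside 22.7% of genes, and 10 of 15 in WT cells, beside 25.7% of genes. The same 2 members, *g13282* and *g7549*, were past 2-fold and lower in HSF1-rescue (6.7% of genes), control (8.25%) and *Hsf1*-/- cells (8.26%), and none was in WT cells (4.61%). The median log2 ratio of the members tested was 1.01 in HSF1-rescue (scaled 1.02, all genes 0.08), 1.28 in control (scaled 1.01, all genes 0.35), 1.13 in *Hsf1*-/- (scaled 0.84, all genes 0.30) and 1.13 in WT cells (scaled 0.91, all genes 0.53).

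In all 4 lines, 6 members were past 2-fold and higher at T48, *g13302*, *g17178*, *g5495*, *g13285*, *g5078* and *g4946*. Of all genes with at least 1 TPM, 5.9% were. After scaling 4 members were, without *g13302* and *g5495*, and 3.9% of genes. The 4 comparisons come from separate libraries, but the derived lines share a parent clone.

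Between lines, HSF1-rescue over control cells at T0 had 2 members past 2-fold and higher, *g13302* and *g17178*, where 4.57% of all genes were, and 3 lower, *g13282*, *g13285* and *g5078*, where 2.41% were. At T48 *g13302* and *g13300* were higher (5.83% of genes) and *g13285*, *g5078* and *g5496* lower (14.2%). Of these only *g13285* was lower past 2-fold after scaling, and *g7549* joined the higher ones with a scaled log2 ratio of 1.25. For *Hsf1*-/- over WT cells at T0, *g13282* and *g13300* were higher (13.4% of genes) and *g17178*, *g5495* and *g6534* lower (5.59%). At T48 no member was higher (4.32%) and 1, *g13302*, was lower (4.84%). Comparisons over the same group share its libraries, so the values at T48 over T0 and those between lines are not independent of each other.

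**Figure D4:**
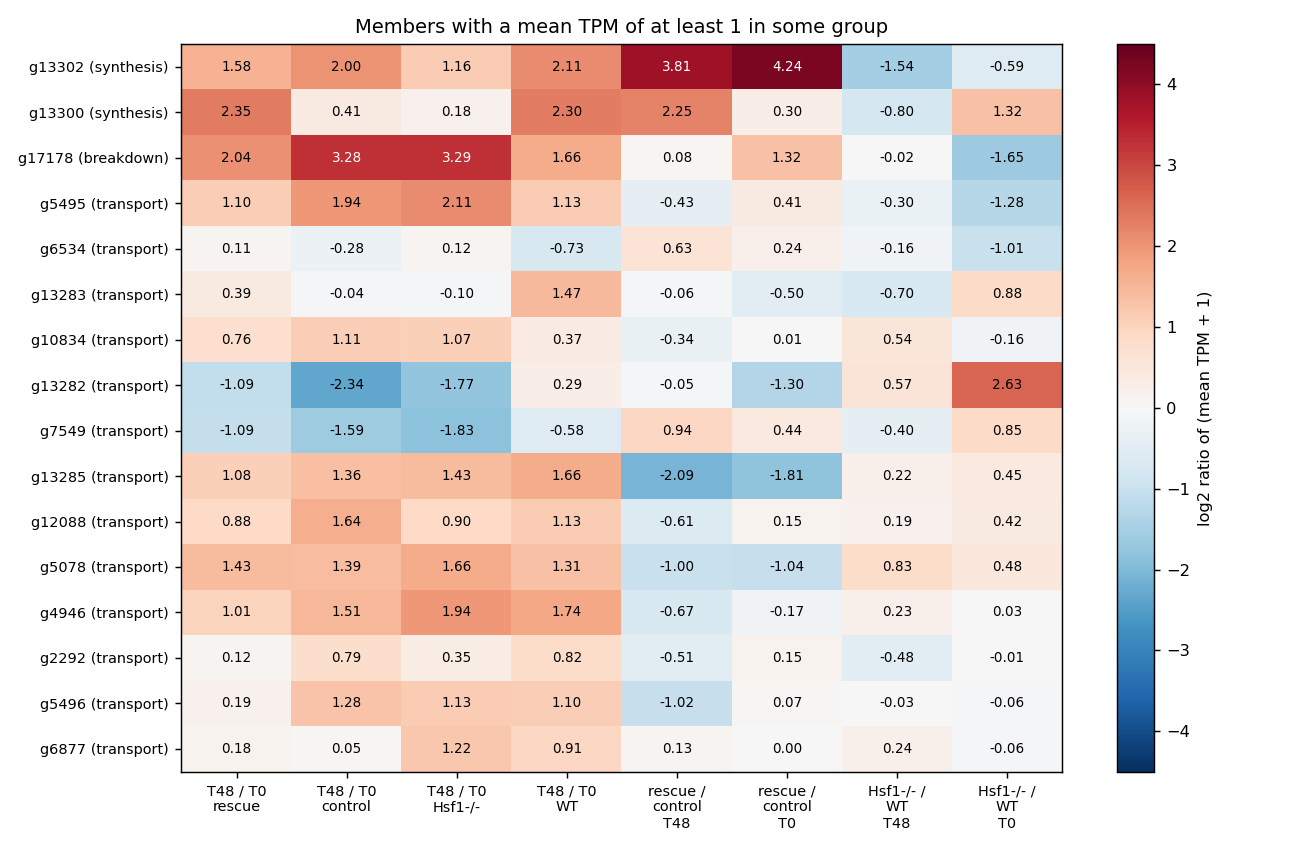
Log2 ratio of mean TPM + 1 (colour and printed value) for the 16 members with at least 1 TPM in some group (rows, by role and then by highest TPM) in the 8 comparisons (columns; rescue and control are the HSF1-rescue and HaloTag/BlaR control cells). The highest values are 3.81 at T48 and 4.24 at T0 for g13302 in HSF1-rescue over control cells, and g17178 has 3.28 and 3.29 for T48 over T0 in control and Hsf1-/- cells.

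The order of the 4 lines gives a second view, with the HSF1-rescue and WT cells set against the control and *Hsf1*-/- cells. At T0 both lines with *Hsf1* were above both lines without it for 4 of the 12 members with at least 1 TPM, *g13302*, *g17178*, *g5495* and *g6534*, and this held for 16.5% of all genes. Another 4, *g13282*, *g13283*, *g13285* and *g5078*, had the opposite order, as did 41.3% of genes. At T48 the lines with *Hsf1* were above for 4 of 16 members, *g13300*, *g13302*, *g6534* and *g7549* (12.5% of genes), and below for *g10834*, *g12088*, *g13285* and *g5078* (35.0% of genes). *g13302* and *g6534* were thus above at both times and *g13285* and *g5078* below at both. After scaling these 4 kept their places. At T48 *g13283* joined the members above, making 5, and *g10834* left those below, leaving 3. The scaled shares of all genes were 21.9% above and 23.0% below at T48, and 25.9% above and 29.1% below at T0.

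The genes most alike to the synthase and to the trehalase, by Pearson's r of log2(TPM + 1) over the 8 groups among 6424 genes that reached 10 TPM, were not the same. For *g13302* they were *g5020* (r = 0.97), which has no annotation in the table, *g4810* (0.96), with a copper/zinc superoxide dismutase domain, *g7662* (0.94), a gamma-glutamyl hydrolase, *g13434* (0.92), a peptidase of family M13, and *g14251* (0.92), a peroxisomal-type ABC transporter of subfamily D. *g5020* had 893 TPM at T48 and 200.1 TPM at T0 in HSF1-rescue cells, 60.3 TPM at T48 and 26.4 TPM at T0 in control cells, 201 TPM at T48 and 58.8 TPM at T0 in *Hsf1*-/- cells, and 703 TPM at T48 and 146 TPM at T0 in WT cells, the same order of the 4 lines at both times as the synthase.

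For *g17178* they were *g16184* (r = 0.99), which encodes the late embryogenesis abundant protein PvLEA1, *g13169* (0.99), of the B-cell receptor-associated protein 29/31 family, *g7263* (0.99), a charged multivesicular body protein, *g16360* (0.99), a protein-L-isoaspartate O-methyltransferase, the enzyme class that repairs aged proteins, and *g15457* (0.99), a dihydrodiol dehydrogenase-like oxidoreductase. *g16184* had 1449 TPM at T48 and 236 TPM at T0 in HSF1-rescue cells, 984 TPM at T48 and 70.5 TPM at T0 in control cells, 1053 TPM at T48 and 79.0 TPM at T0 in *Hsf1*-/- cells, and 904 TPM at T48 and 206 TPM at T0 in WT cells. Within the family, *g17178* was most like *g5495* (0.97), and *g13302* was most like *g13300* (0.71). These correlations describe 8 group means that share their lines and times, the 5 genes were picked as the highest of many, and no test was made.

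The enzymes that supply or use the sugar phosphates of the pathway were followed with a list of 16 genes taken by enzyme name, of which 13 reached 1 TPM. At T48 over T0, 5 of the 13 were past 2-fold and lower in HSF1-rescue cells (6.7% of all genes tested) and 1 was higher (11.5%). In control cells 1 was lower (8.25%) and 5 were higher (24.5%), in *Hsf1*-/- cells none was lower (8.26%) and 4 were higher (22.7%), and in WT cells 2 were lower (4.61%) and 2 higher (25.7%). The median log2 ratio of the 13 was -0.98 in HSF1-rescue (scaled -1.06), 0.93 in control (scaled 0.56), 0.80 in *Hsf1*-/- (scaled 0.48) and -0.26 in WT cells (scaled -0.79). After scaling, 7 genes were lower (7.95% of all genes) and 1 higher (10.5%) in HSF1-rescue cells. In WT cells 5 were lower (11.0%) and 1 higher (12.6%). In control cells 1 was lower (14.0%) and 2 higher (15.5%), and in *Hsf1*-/- cells 1 was lower (14.0%) and 3 higher (15.5%).

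HSF1-rescue over control cells at T48 had 8 genes of the list lower (14.2% of all genes) and none higher (5.83%), with a median of -1.14. After scaling 6 were lower (7.02%) and the median was -0.79. *Hsf1*-/- over WT cells at T48 had 3 higher (4.32%) and none lower (4.84%), with a median of 0.71 (scaled 0.66). At T0 no gene of the list was past 2-fold between HSF1-rescue and control cells (4.57% of all genes higher and 2.41% lower), and *Hsf1*-/- over WT cells had 1 higher (13.4%) and 4 lower (5.59%). After scaling, *Hsf1*-/- over WT cells at T0 had 1 higher (7.16%) and 6 lower (9.01%), with a median of -0.90.

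Glucose-6-phosphate isomerase and 6-phosphofructokinase had the highest mean TPM of the list. Glucose-6-phosphate isomerase (*g2663*), which interconverts glucose-6-phosphate and fructose-6-phosphate, had 279 TPM at T48 and 601 TPM at T0 in HSF1-rescue cells, 813 TPM at T48 and 417 TPM at T0 in control cells, 771 TPM at T48 and 304 TPM at T0 in *Hsf1*-/- cells, and 470.0 TPM at T48 and 789 TPM at T0 in WT cells. 6-phosphofructokinase (*g10749*), which commits fructose-6-phosphate to glycolysis, had 176 TPM at T48 and 380 TPM at T0 in HSF1-rescue cells, 678 TPM at T48 and 266 TPM at T0 in control cells, 668 TPM at T48 and 185 TPM at T0 in *Hsf1*-/- cells, and 342 TPM at T48 and 647 TPM at T0 in WT cells. In both genes the 2 lines with *Hsf1* were lower at T48 and higher at T0 than the 2 lines without it.

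The most abundant of 3 genes named phosphoglucomutase (*g7326*), which links glucose-6-phosphate to the glucose-1-phosphate of UDP-glucose and glycogen, had 91.1 TPM at T48 and 321 TPM at T0 in HSF1-rescue cells, and 266 TPM at T48 and 202 TPM at T0 in control cells. Its HSF1-rescue log2 ratio of -1.81 was the largest in size of the list in that line. Another, *g6635*, went differently, with 25.2 TPM at T48 and 23.8 TPM at T0 in HSF1-rescue cells, 24.7 TPM at T48 and 32.0 TPM at T0 in control cells, 24.7 TPM at T48 and 32.4 TPM at T0 in *Hsf1*-/- cells, and 35.5 TPM at T48 and 16.8 TPM at T0 in WT cells. The third, *g16921*, with 2 of 15 hits of that name, reached 62.4 TPM in control cells at T48. Glycogen synthase (*g11259*) had 8.19 TPM at T48 and 30.2 TPM at T0 in HSF1-rescue cells and 11.1 TPM at T48 and 38.9 TPM at T0 in WT cells (log2 ratios -1.76 and -1.72). It had 28.0 TPM at T48 and 27.2 TPM at T0 in control cells, and 30.8 TPM at T48 and 25.4 TPM at T0 in *Hsf1*-/- cells. Glycogen phosphorylase (*g4514*), which releases glucose-1-phosphate from glycogen, had 133 TPM at T48 and 330 TPM at T0 in HSF1-rescue cells, 213 TPM at T48 and 213 TPM at T0 in control cells, 267 TPM at T48 and 180 TPM at T0 in *Hsf1*-/- cells, and 107 TPM at T48 and 324 TPM at T0 in WT cells.

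The remaining genes of the list reached 46.0 TPM at most. The hexokinase *g1897*, which makes glucose-6-phosphate, was the member of the list that was past 2-fold and higher at T48 in every line, with 8.09 TPM at T48 and 1.78 TPM at T0 in HSF1-rescue cells, 5.67 TPM at T48 and 0.647 TPM at T0 in control cells, 8.34 TPM at T48 and 1.13 TPM at T0 in *Hsf1*-/- cells, and 7.58 TPM at T48 and 1.77 TPM at T0 in WT cells. *g10441*, the only gene found under the name of UDP-glucose pyrophosphorylase, which makes the UDP-glucose used by the synthase, stayed at 0.510 TPM or less. The branching enzyme *g10493* reached 46.0 TPM, fructose-1,6-bisphosphatase (*g13920*) 26.6 TPM, the debranching enzyme *g4375* 22.1 TPM and glycogenin (*g8112*) 16.4 TPM.

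**Figure D5:**
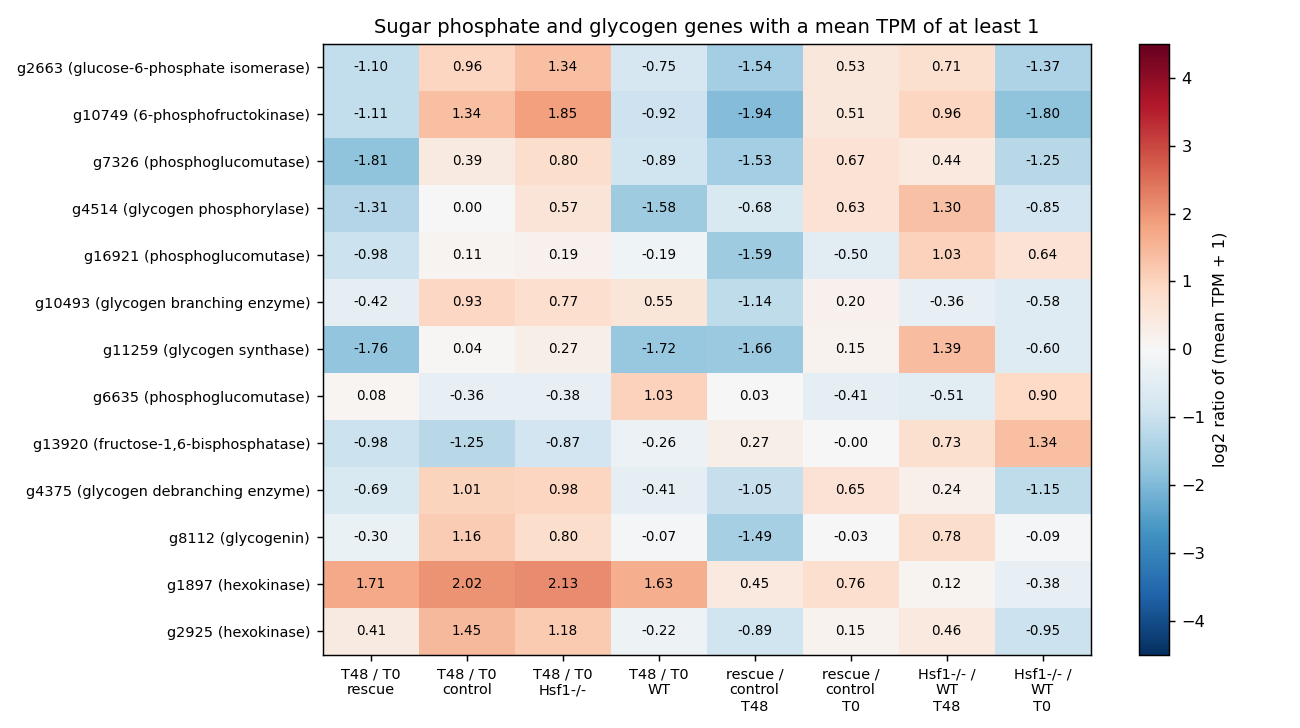
Log2 ratio of mean TPM + 1 (colour and printed value) for the 13 genes of sugar phosphate and glycogen metabolism with at least 1 TPM in some group (rows, by highest TPM) in the 8 comparisons (columns; rescue and control as named in the text). For T48 over T0, g2663 and g10749 have negative values in HSF1-rescue (-1.10 and -1.11) and WT cells (-0.75 and -0.92) and positive values in the other 2 lines.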

How the data were processed

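RNA was measured by poly(A) mRNA-seq with paired-end reads in 24 libraries. Per the labels and the study's methods, the authors used Trimmomatic for trimming, Hisat2 for alignment to the Pv_5.2 assembly, SAMtools 1.9, Picard to mark duplicates and HTSeq 0.6.0 to count uniquely placed reads by gene. The TPM values computed from these counts were averaged by the authors over the 3 libraries of a group, and the averages are what was deposited. The deposited table repeats a gene for each motif match over 25248 lines, and each of 17782 genes was taken once. The deposited FIMO score is the value the authors' motif search gave to each match. Columns of the authors' clusters, p-values and q-values were not used. Coordinates were written counting from 1.

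Because only group means were deposited, the planned comparisons between libraries were replaced by ratios with a pseudocount of 1, a minimum of 1 TPM and a 2-fold threshold, computed over the whole table (Python 3.11.15, pandas 2.3.3, numpy 2.4.6) and tested on simulated data. Scaling factors (0.778 to 1.23) were the median of ratios over the 8873 genes with no group at 0. RefSeq loci of Pv_5.2 with identical coordinates were found for 13 of the 35 members. The text names *g13302*, *g17178*, other members with synthesis or breakdown domains, members that reached 10 TPM, the extremes of each comparison, neighbouring genes, the 5 genes most alike to each of *g13302* and *g17178*, leading genes of the sugar metabolism list, *g3611* and *g7775*; other members below 10 TPM were named after their values were seen. The members and lists were chosen with earlier results of these data known. Other pseudocounts, minimums, scalings and member rules were tried. The spread between libraries was not computed, since library values in the study's supplement were not used here, and no interval is given.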

Additional observations from a re-analysis of the deposited data

How the results depend on the processing

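No paired analysis was possible because the deposited values are means of the 3 libraries of a group, and library values in the study's supplement were not used here; leaving out single libraries was not possible for the same reason. Of 88 log2 ratios of 11 named members, all kept their sign where they had been past 2-fold; scaling took 6 of them under 2-fold and 3 others past it, and omission of the 10 most abundant genes changed none. After scaling, members past 2-fold at T48 over T0 in WT numbered 6 higher (12.6% of all genes) and 2 lower (11.0%), against 10 and 0 (25.7% and 4.61%), and those lower in HSF1-rescue than in control cells at T48 numbered 1 (7.02% of genes), against 3 (14.2%). With a pseudocount of 0.1 or 0.01, 1 of 16 members tested was higher in *Hsf1*-/- than in WT cells at T48, against 0 of 16. With 0.01, 5 of 15 were lower in HSF1-rescue than in control cells at T48, against 3 of 15. A minimum of 5 TPM left 4 of 9 members tested higher at T48 in HSF1-rescue cells, against 7 of 13. The shares of all genes under these pseudocounts and this minimum were not computed. Without any minimum, the median T48 over T0 log2 ratio of members was 0.20 in HSF1-rescue cells (26 members), against 1.01. It was 0.09 in control cells (27 members), against 1.28, 0.12 in *Hsf1*-/- cells (30 members), against 1.13, and 0.38 in WT cells (27 members), against 1.13. With members by the majority of their BLAST hits (21 genes), the members higher at T48 numbered 4 in HSF1-rescue, 5 in control, 5 in *Hsf1*-/- and 6 in WT cells, and 1 was lower in HSF1-rescue than in control cells at T48. With members by the first hit alone (4 genes, 3 of them expressed), those higher numbered 3 in HSF1-rescue, 2 in control, 2 in *Hsf1*-/- and 3 in WT cells, with 0 lower in the 3 derived lines. By that rule 0 members were lower in HSF1-rescue than in control cells at either time, and 1 was higher and 1 lower in *Hsf1*-/- than in WT cells at T0. Both rules take fewer genes, and *g5495*, *g4946* and *g13285*, higher at T48 in all 4 lines by the main rule, are in neither set. The cause of the smaller counts was not tested. Only the members change under these rules, so the shares of all genes are those of the main counts. The share of members with a predicted HSE was 8.57% for MA0319.1 alone (10.5% of all genes), 17.1% for MA0486.1 (6.81%), 20% for MA0486.2 (12.2%), 20% for MA0770.1 (11.4%) and 14.3% for MA0771.1 (8.35%), since each is a part of the 37.1% with any of them. The cause of the other differences was not tested.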
